A study of Mus musculus with 7 samples.

Results

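The small proline-rich (Sprr) genes were examined as a family, by symbol, in bulk tumour RNA from a mouse model of cutaneous squamous cell carcinoma. The 10 members were Sprr1a, Sprr1b, Sprr2a1, Sprr2b, Sprr2d, Sprr2e, Sprr2h, Sprr2k, Sprr3 and Sprr4 out of 55423 features in the count table, taken by gene symbol. All 10 passed the filter on low counts. The table held 7 other Sprr genes, of which 6 passed the filter, and these are given separately.

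Tumours of 2 genotypes were compared to learn what the expression of SOX2 changes in a BRAF-driven skin tumour. In Ivl:BRAFV600E mice, a tamoxifen-inducible Cre recombinase (CreERT2) under the involucrin promoter, which is active in committed keratinocytes, switches on a BRAFV600E allele in the cells that express it. Ivl:BRAFV600E-SOX2LSL mice carry the same Cre and BRAFV600E alleles and, at the Rosa26 locus, a stop-flanked SOX2 cassette followed by eGFP. Tamoxifen was applied to the back skin of mice of 7 to 10 weeks, as the labels give the age at induction, and tumours were taken at the clinical endpoint, each from a separate mouse. The 6 tumours used were 3 of each genotype. Ivl:BRAFV600E tumours 1 and 2 came from females that also carried a Rosa26 tdRFP reporter, and tumour 3 came from a male without it that was collected latest. Ivl:BRAFV600E-SOX2LSL tumours 1 and 2 came from males and tumour 3 from a female. Every Ivl:BRAFV600E-SOX2LSL tumour was collected sooner after induction than every Ivl:BRAFV600E tumour, so that genotype and time since induction cannot be told apart.

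SPRR proteins are small precursors of the cornified envelope, the protein shell that replaces the plasma membrane of keratinocytes as they die at the skin surface. Transglutaminases join them to loricrin, involucrin and each other through glutamine and lysine residues at both ends, and the proline-rich repeats between these ends act as a flexible bridge. Their genes sit together in the epidermal differentiation complex, and they are known to rise in stressed, wounded and hyperproliferative epithelia, with SPRR3 typical of the mucosal lining of the mouth and oesophagus.

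The libraries held between 23565432 and 31152826 counts on genes. Levels are given as CPM (counts per 1 M counts of the library, after TMM scaling), at which 3 counts, taken as the floor of detection, correspond to 0.0839 to 0.143 CPM. A gene was called where the edgeR quasi-likelihood test gave a Benjamini-Hochberg adjusted p below 0.05 over the 24433 genes tested. Sox2 stood at 0.716, 0.508 and 0.238 CPM in the Ivl:BRAFV600E tumours and at 182, 155 and 158 CPM in the Ivl:BRAFV600E-SOX2LSL tumours, which matches the labels. A keratinocyte list was meant for all layers, but it includes Krt5 and Krt14, which the study calls basal markers. Counts on this list may therefore lean to basal cells. They summed to between 28429 and 51555 CPM in the Ivl:BRAFV600E tumours and between 15233 and 37008 CPM in the Ivl:BRAFV600E-SOX2LSL tumours. The sum of 9 suprabasal markers was 70861 to 96329 CPM against 2350 to 23198 CPM, without overlap. Skeletal muscle markers summed to 10.2 to 25.5 CPM against 900 to 3815 CPM, and leukocyte markers to 209 to 693 CPM against 649 to 1204 CPM. Their part in the Sprr results was not tested. In bulk RNA, fewer cells of a type and less RNA per cell cannot be told apart.

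The Sprr genes split in opposite directions. Of the 10 members, 4 were lower in Ivl:BRAFV600E-SOX2LSL tumours (Sprr1a, Sprr1b, Sprr2h and Sprr2k), 2 were higher (Sprr2a1 and Sprr3) and 4 were not called (Sprr2b, Sprr2d, Sprr2e and Sprr4). Thus 60% of the members were called, against 3.90% of all genes tested (1.51% lower and 2.39% higher). The same 6 members had no overlap between the groups, 4 lower and 2 higher, where 34.2% of all genes tested had none (16.0% lower and 18.2% higher). These 6 were also the members with an unadjusted edgeR p below 0.05, which 25.7% of all genes tested had (11.2% on the lower side). The log2 fold changes ran from -2.82 to 4.60 with a median of 0.27, beside a median of 0.04 over all genes tested. Sex was split unevenly between the groups, and with sex as a covariate Sprr2a1 alone stayed called, as set out below.

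**Figure D1:**
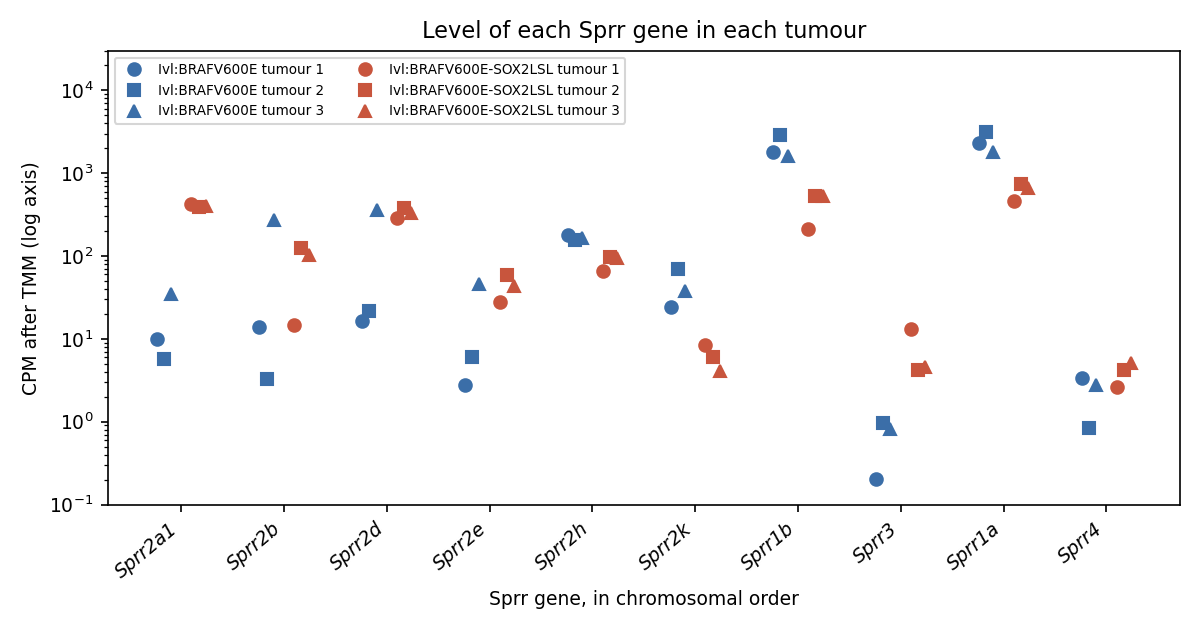
Level of each Sprr gene in CPM (log axis) in the 3 Ivl:BRAFV600E tumours (blue) and the 3 Ivl:BRAFV600E-SOX2LSL tumours (red), with 1 symbol per tumour. Sprr1a, Sprr1b, Sprr2h and Sprr2k were lower and Sprr2a1 and Sprr3 higher in every red tumour, while Ivl:BRAFV600E tumour 3 (blue triangle) lay with the red tumours for Sprr2d and Sprr2e and above them for Sprr2b.

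Sprr1a and Sprr1b encode the SPRR1 envelope precursors, which keratinocytes make early in cornification and under stress. Sprr1a (chr3:92483952-92485895, minus strand, GRCm38) stood at 2290, 3136 and 1785 CPM in the Ivl:BRAFV600E tumours and at 466, 743 and 654 CPM in the Ivl:BRAFV600E-SOX2LSL tumours. The lowest Ivl:BRAFV600E tumour was above the highest Ivl:BRAFV600E-SOX2LSL tumour, so that the groups did not overlap. The means were 2404 ± 682 and 621 ± 142 CPM (SD, n = 3), a 3.87-fold lower level, with a log2 fold change of -1.95 (SE 0.28, edgeR adjusted p = 0.0238).

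Sprr1b (chr3:92436809-92438789, minus strand) moved with Sprr1a. It was at 1781, 2904 and 1604 CPM in the Ivl:BRAFV600E tumours and at 210, 534 and 525 CPM in the others, again without overlap. Its mean was 4.96-fold lower, with a log2 fold change of -2.31 (SE 0.42, edgeR adjusted p = 0.0350). In both genes Ivl:BRAFV600E tumour 2 was the highest of all and Ivl:BRAFV600E-SOX2LSL tumour 1 the lowest.

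Of the Sprr2 genes, which encode shorter envelope precursors, Sprr2h and Sprr2k were lower. Sprr2k (chr3:92432582-92433925, plus strand) had the largest fall of the members, from 24.3, 70.2 and 37.6 CPM to 8.53, 6.09 and 4.04 CPM. These groups did not overlap, although the Ivl:BRAFV600E tumours spread widely, with tumour 2 the highest. The log2 fold change was -2.82 (SE 0.45, edgeR adjusted p = 0.0272), and the mean was 7.08-fold lower.

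Sprr2h (chr3:92385685-92387324, plus strand) was at 180, 157 and 167 CPM in the Ivl:BRAFV600E tumours and 65.9, 98.4 and 95.0 CPM in the Ivl:BRAFV600E-SOX2LSL tumours. Relative to its mean it varied least of the members in the Ivl:BRAFV600E tumours, though not in the others. The fall was smaller than that of the other called members, 1.95-fold between the means, but the Ivl:BRAFV600E values lay close together and the groups did not overlap. Its log2 fold change was -0.96 (SE 0.18, edgeR adjusted p = 0.0364). Per 1000 counts on the keratinocyte list, Sprr2h took 6.34, 3.05 and 4.17 counts against 4.33, 2.66 and 3.32, and on that scale the groups overlapped (exact permutation test, two-sided, p = 0.5). Sprr1a, Sprr1b and Sprr2k did not overlap on that scale, each at p = 0.1 by the exact permutation test, the smallest that 3 against 3 tumours allow.

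The promoters of these 4 genes are shown because all were called lower. Each runs from 250 bases before to 50 after the start given by RefSeq on GRCm38.p6, read 5′ to 3′ along the gene's strand, with capitals marking the AP-1 motif TGANTCA. AP-1, the dimer of JUN and FOS proteins, is a textbook regulator of genes of the differentiating epidermis. The windows are chr3:92485832-92486131 (Sprr1a, minus strand), chr3:92438730-92439029 (Sprr1b, minus strand), chr3:92385435-92385734 (Sprr2h, plus strand) and chr3:92432332-92432631 (Sprr2k, plus strand).
Sprr1a: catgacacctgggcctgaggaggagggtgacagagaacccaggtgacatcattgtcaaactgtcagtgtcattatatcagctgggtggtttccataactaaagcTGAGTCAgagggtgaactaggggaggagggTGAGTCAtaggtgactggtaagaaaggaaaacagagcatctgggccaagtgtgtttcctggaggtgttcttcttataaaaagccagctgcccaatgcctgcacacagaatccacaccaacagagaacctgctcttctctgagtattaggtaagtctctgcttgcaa
Sprr1b: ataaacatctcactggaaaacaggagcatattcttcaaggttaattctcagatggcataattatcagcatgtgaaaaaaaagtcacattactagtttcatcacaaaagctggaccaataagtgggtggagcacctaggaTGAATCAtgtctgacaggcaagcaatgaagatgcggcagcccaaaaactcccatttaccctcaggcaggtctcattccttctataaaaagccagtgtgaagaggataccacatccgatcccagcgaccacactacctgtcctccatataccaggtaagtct
Sprr2h: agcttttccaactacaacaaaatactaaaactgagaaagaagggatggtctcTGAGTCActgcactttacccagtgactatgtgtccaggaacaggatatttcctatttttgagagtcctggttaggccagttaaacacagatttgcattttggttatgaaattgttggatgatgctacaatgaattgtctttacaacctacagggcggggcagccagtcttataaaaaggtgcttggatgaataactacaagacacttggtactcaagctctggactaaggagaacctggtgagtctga
Sprr2k: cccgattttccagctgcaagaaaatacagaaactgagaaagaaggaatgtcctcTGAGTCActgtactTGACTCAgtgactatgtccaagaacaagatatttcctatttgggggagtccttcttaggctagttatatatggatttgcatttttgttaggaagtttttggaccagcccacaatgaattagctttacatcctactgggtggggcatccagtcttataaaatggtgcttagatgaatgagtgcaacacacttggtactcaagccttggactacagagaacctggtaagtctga

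Sprr1a held the letters TGAGTCA at 146 and 116 bases before the start, and Sprr1b held TGAATCA at 111 bases before it. In Sprr2h the motif began 198 bases before the start, and Sprr2k held it at 196 and 182 bases. The Sprr2h and Sprr2k promoters were identical at 247 of 298 aligned bases (82.9%).

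Sprr2a1 and Sprr3 went the other way. Sprr2a1 (chr3:92215799-92221911, plus strand) was at 9.96, 5.77 and 34.7 CPM in the Ivl:BRAFV600E tumours and at 424, 390 and 406 CPM in the Ivl:BRAFV600E-SOX2LSL tumours. The latter lay close together and far above the former, of which tumour 3 was the highest. The means were 16.8 ± 15.6 and 407 ± 16.9 CPM (SD, n = 3), 24.2-fold higher, with a log2 fold change of 4.60 (SE 0.67, edgeR adjusted p = 0.0249).

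The counts of Sprr2a1 cannot be separated with certainty from those of its near copies. Of the 100-base stretches of its transcripts, 92.5% also occurred in another gene, mainly Sprr2a2 and Sprr2a3, its exons overlap those of Sprr2a2 by 43 bases, and how reads with several matches were counted is not stated. Sprr2a2 and Sprr2a3 rose as well, with log2 fold changes of 5.48 (SE 0.85, edgeR adjusted p = 0.0267) and 4.41 (SE 0.86, edgeR adjusted p = 0.0417). Summed to a single feature, the 3 genes stood at 20.5, 8.92 and 74.0 CPM against 907, 908 and 1003 CPM, and the log2 fold change of the sum was 4.77 (SE 0.77). The direction therefore held for the 3 copies as a group, whichever of them the reads came from. None of the 100-base stretches of Sprr1a, Sprr1b, Sprr2d, Sprr2h, Sprr2k, Sprr3 and Sprr4 occurred in another gene, and 0.438% and 1.09% of those of Sprr2b and Sprr2e did.

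Sprr3 (chr3:92456502-92458720, minus strand) was scarce in every tumour. It had 6, 21 and 17 counts in the Ivl:BRAFV600E tumours, or 0.205, 0.970 and 0.808 CPM, all above the floor of 3 counts. In the Ivl:BRAFV600E-SOX2LSL tumours it had 470, 131 and 126 counts, or 13.1, 4.24 and 4.55 CPM, with tumour 1 well above the other two and no overlap between the groups. The log2 fold change was 3.49 (SE 0.69, edgeR adjusted p = 0.0436). Of 8 other genes of mucosal epithelium, 1 was higher and 1 lower: Mal, a raft protein of stratified mucosa, had a log2 fold change of 1.94 (edgeR adjusted p = 0.0270), and Krt76, a keratin of the palate, one of -3.58 (edgeR adjusted p = 0.0335). DESeq2 called 3 of these higher and 3 lower, and limma voom 2 and 0.

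The windows of both rising members are also shown. Neither held the letters TGANTCA on either strand, so both are printed without capitals. The windows are chr3:92215585-92215884 (Sprr2a1, plus strand) and chr3:92458671-92458970 (Sprr3, minus strand).
Sprr2a1: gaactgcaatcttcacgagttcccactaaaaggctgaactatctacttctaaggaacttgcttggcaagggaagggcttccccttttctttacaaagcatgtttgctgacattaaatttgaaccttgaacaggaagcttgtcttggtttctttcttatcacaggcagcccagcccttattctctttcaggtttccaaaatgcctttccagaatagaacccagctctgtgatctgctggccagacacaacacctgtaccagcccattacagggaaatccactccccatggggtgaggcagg
Sprr3: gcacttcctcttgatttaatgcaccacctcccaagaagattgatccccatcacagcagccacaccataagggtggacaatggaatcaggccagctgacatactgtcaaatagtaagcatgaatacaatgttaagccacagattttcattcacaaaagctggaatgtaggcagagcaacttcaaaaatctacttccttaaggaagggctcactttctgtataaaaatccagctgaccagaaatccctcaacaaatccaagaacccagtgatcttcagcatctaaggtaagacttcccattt

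The Sprr2a1 window was identical to that of Sprr2a2 at 300 of 300 bases, and to that of Sprr2a3 at all 272 aligned bases. It ends with a stretch that in the Sprr2b window comes just before the letters TATAAA. The start given for Sprr2a1 thus lies upstream of the matching point in Sprr2b. These windows match only in part, with 191 aligned bases, so they are not compared as promoters. Sprr3 held 2 copies of the SOX motif ACAATG upstream of the start.

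Sprr2b, Sprr2d and Sprr2e, further Sprr2 envelope precursors, were not called, and in all 3 genes Ivl:BRAFV600E tumour 3 stood apart from tumours 1 and 2. Sprr2d (chr3:92339140-92340873, plus strand) was at 16.4 and 21.6 CPM in Ivl:BRAFV600E tumours 1 and 2 and at 357 CPM in tumour 3. The Ivl:BRAFV600E-SOX2LSL tumours were at 288, 380 and 329 CPM, so that tumour 3 lay among them, 16.5-fold above the higher of its 2 group mates. With all 6 tumours the log2 fold change was 1.34 (SE 1.08, edgeR adjusted p = 0.466). Without tumour 3 it was 4.13, and the gene was called (edgeR adjusted p = 0.00685).

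Sprr2e (chr3:92352143-92353449, plus strand) had the same order, at 2.80, 6.05 and 46.0 CPM against 27.6, 59.5 and 43.4 CPM. Its log2 fold change was 1.25 (SE 0.93, edgeR adjusted p = 0.427), and 3.30 without Ivl:BRAFV600E tumour 3 (edgeR adjusted p = 0.0590). Sprr2b (chr3:92316620-92318085, plus strand) was the most variable member, at 14.1, 3.23 and 269 CPM against 14.8, 125 and 103 CPM. Here tumour 3 was the highest of all 6, and Ivl:BRAFV600E-SOX2LSL tumour 1 lay beside Ivl:BRAFV600E tumour 1. The log2 fold change of Sprr2b was -0.24 (SE 1.42, edgeR adjusted p = 0.936) and turned to 3.22 without tumour 3. Tumour 3 differed from tumours 1 and 2 in sex, in the reporter and in the time of collection, which cannot be told apart.

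The Sprr2d promoter, chr3:92338890-92339189 on the plus strand, is shown for these 3 genes, with the AP-1 motif again in capitals. It was identical to that of Sprr2e at 267 of 298 aligned bases (89.6%).
Sprr2d: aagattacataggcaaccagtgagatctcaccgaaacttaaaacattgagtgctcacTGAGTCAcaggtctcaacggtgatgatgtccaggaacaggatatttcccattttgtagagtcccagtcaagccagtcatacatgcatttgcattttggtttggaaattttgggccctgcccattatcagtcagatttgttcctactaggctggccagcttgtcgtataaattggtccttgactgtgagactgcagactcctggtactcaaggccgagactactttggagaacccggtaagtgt

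Sprr4 (chr3:92500263-92500493, minus strand), a single-exon gene at the end of the cluster, was low throughout, at 3.41, 0.831 and 2.76 CPM against 2.63, 4.24 and 5.13 CPM. The groups overlapped, with a log2 fold change of 0.77 (SE 0.52, edgeR adjusted p = 0.381). The annotated exon spans 231 bases and begins with an ATG, so that untranslated parts of the transcript may be missing from it and from the counts.

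Over the 10 promoters, TGANTCA occurred in 7 (Sprr1a, Sprr1b, Sprr2b, Sprr2d, Sprr2e, Sprr2h and Sprr2k) and was absent from those of Sprr2a1, Sprr3 and Sprr4. Both strands were searched, and 7.93% of 27025 promoters of the same length held it. The 4 falling members held the motif, and so did 3 of the members that were not called. An octamer, ATGCAAAT, which POU factors are known to bind, occurred in 5 of 10 members (Sprr2b, Sprr2d, Sprr2e, Sprr2h and Sprr2k), against 1.75% of all promoters. The SOX motif ACAATG occurred in 4 of 10 members, Sprr1a, Sprr2h, Sprr2k and Sprr3, against 12.8% of all promoters, and these 4 moved in both directions. A TATA box, TATAAA, searched on the strand of the gene only, occurred in 8 of 10 members and in 8.88% of all promoters, and the members without it were Sprr2a1 and Sprr4. The STAT motif TTCNNNGAA, present in 8.47% of all promoters, occurred in none of the 10. Promoters of Sprr2 genes are copies of each other in large part, so these are not independent occurrences, and a match is no evidence of binding. The start given for Sprr4 is the first base of an ATG, where its only annotated exon of 231 bases begins, so its window may not be its promoter. The Sprr2a1 window stops short of the stretch that matches the TATA region of Sprr2b. The absence of TATAAA from both windows, and of TGANTCA from that of Sprr4, therefore cannot be read as a trait of the promoter.

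The genes lie within 285 kb on chromosome 3 (chr3:92215799-92500493), where 19 genes were tested and 3 of these were not Sprr genes (Gm37087, Gm37752 and Gm9774, none of them called). At the proximal end, Sprr2a1, Sprr2a2 and Sprr2a3 were higher. The next genes along the chromosome, Sprr2b, Sprr2d, Sprr2e, Sprr2f and Sprr2g, were not called, and Sprr2f and Sprr2g had log2 fold changes of 2.54 and 1.49 (edgeR adjusted p = 0.151 and 0.255). From Sprr2h onwards the called genes were lower, namely Sprr2h, Sprr2j-ps, Sprr2k, Sprr1b and Sprr1a, with Sprr3 as the exception. Sprr3 lay between Sprr1b and Sprr1a and was higher while both were lower. Sprr2j-ps stood at 25.2, 42.2 and 42.1 CPM against 7.11, 15.8 and 9.64 CPM, a log2 fold change of -1.75 (SE 0.34, edgeR adjusted p = 0.0415). Sprr2i, between Sprr2h and Sprr2j-ps, was not called (0.32, edgeR adjusted p = 0.803).

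**Figure D2:**
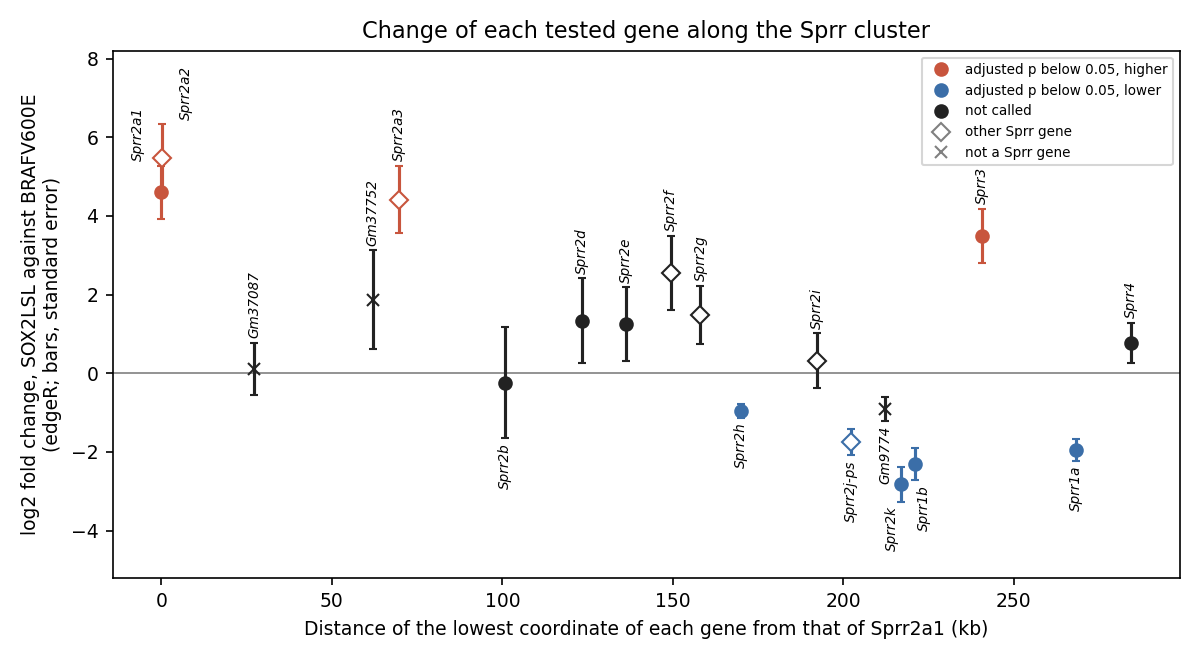
Fold change (log2, with its standard error) of each of the 19 tested genes along the Sprr cluster against distance in kb from Sprr2a1; filled circles are the 10 members, open diamonds the other Sprr genes and crosses the 3 remaining genes. The called genes on the left (red, log2 fold changes of 4.41 to 5.48) were higher, and those on the right were lower (blue, -2.82 to -0.96) except Sprr3.

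Levels of different genes were compared per kb of exon (FPKM). In Ivl:BRAFV600E tumours the order of the means was Sprr1a (2982 FPKM), Sprr1b (2526), Sprr2h (224), Sprr2d (193), Sprr2b (122), Sprr2k (69.1), Sprr2e (28.3), Sprr4 (10.1), Sprr2a1 (5.60) and Sprr3 (0.541). Within each of these 3 tumours Sprr1a lay above Sprr1b, Sprr1b above Sprr2h, Sprr2d above Sprr2b, Sprr4 above Sprr2a1 and Sprr2a1 above Sprr3, while the other neighbours changed order between tumours. Across the tumours, the ranges of Sprr1b and Sprr2h and of Sprr2a1 and Sprr3 did not overlap, and those of the other neighbours did. In Ivl:BRAFV600E-SOX2LSL tumours Sprr1a (771 FPKM) and Sprr1b (509) still led, followed by Sprr2d (488), Sprr2a1 (135), Sprr2h (115), Sprr2b (103), Sprr2e (67.2), Sprr4 (17.3), Sprr2k (9.77) and Sprr3 (5.99). Within each of these tumours Sprr1a lay above Sprr1b, Sprr2d above Sprr2a1, Sprr2e above Sprr4 and Sprr2k above Sprr3, while the other neighbours changed order. Across the tumours, the ranges of Sprr2d and Sprr2a1 and of Sprr2e and Sprr4 did not overlap, and those of the other neighbours did. The place of Sprr2a1 is uncertain, since its annotated exons span 3003 bases, those of the other members span 231 to 1222, and its reads may be shared with its near copies. That of Sprr4 is uncertain too, since its 231 annotated bases may lack untranslated parts of the transcript. Sprr2k was above Sprr4 in every Ivl:BRAFV600E tumour and in 1 of the others, and Sprr3 had the lowest mean of the 10 in both groups.

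The 10 members together took a smaller share of the RNA, 0.407%, 0.520% and 0.384% of all counts in the Ivl:BRAFV600E tumours and 0.191%, 0.251% and 0.233% in the Ivl:BRAFV600E-SOX2LSL tumours. These did not overlap (exact permutation test, two-sided, p = 0.1). The other Sprr genes, near copies of Sprr2a1 included, are not in this share and went the other way, from 47.7 to 189 CPM in the Ivl:BRAFV600E tumours to 564 to 711 CPM. Per 100 counts on the keratinocyte list, the members took 15.2, 12.2 and 10.7 counts against 9.98, 6.34 and 7.58, again without overlap (exact permutation test, p = 0.1).

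The counts were also divided differently among the members. Sprr1a and Sprr1b together held 94.2%, 95.8% and 78.7% of the members' counts in the Ivl:BRAFV600E tumours and 44.4%, 54.5% and 54.3% in the Ivl:BRAFV600E-SOX2LSL tumours. Sprr2a1 held 0.230%, 0.0916% and 0.806% against 27.9%, 16.6% and 18.7%. For each Sprr2a1 count there were 230, 543 and 51.5 counts of Sprr1a in the Ivl:BRAFV600E tumours but 1.10, 1.91 and 1.61 in the others. Sprr2b, Sprr2d and Sprr2e together held 0.770% and 0.490% in Ivl:BRAFV600E tumours 1 and 2, 15.6% in tumour 3, and 21.7%, 24.1% and 21.9% in the Ivl:BRAFV600E-SOX2LSL tumours. Sprr2h held 4.17%, 2.49% and 3.88% against 4.34%, 4.196% and 4.38%, and Sprr2k 0.563%, 1.11% and 0.874% against 0.561%, 0.260% and 0.186% (exact permutation test, p = 0.1 for each). The share of Sprr2h was thus higher in the Ivl:BRAFV600E-SOX2LSL tumours although its level was lower, and that of Sprr2k was lower, with tumour 1 of both groups nearly equal. All 13 Sprr2 genes summed to a single feature stood at 295, 355 and 1101 CPM against 1393, 1770 and 1674 CPM, a log2 fold change of 1.47 (SE 0.49), so that the sum rose while Sprr2h and Sprr2k fell.

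**Figure D3:**
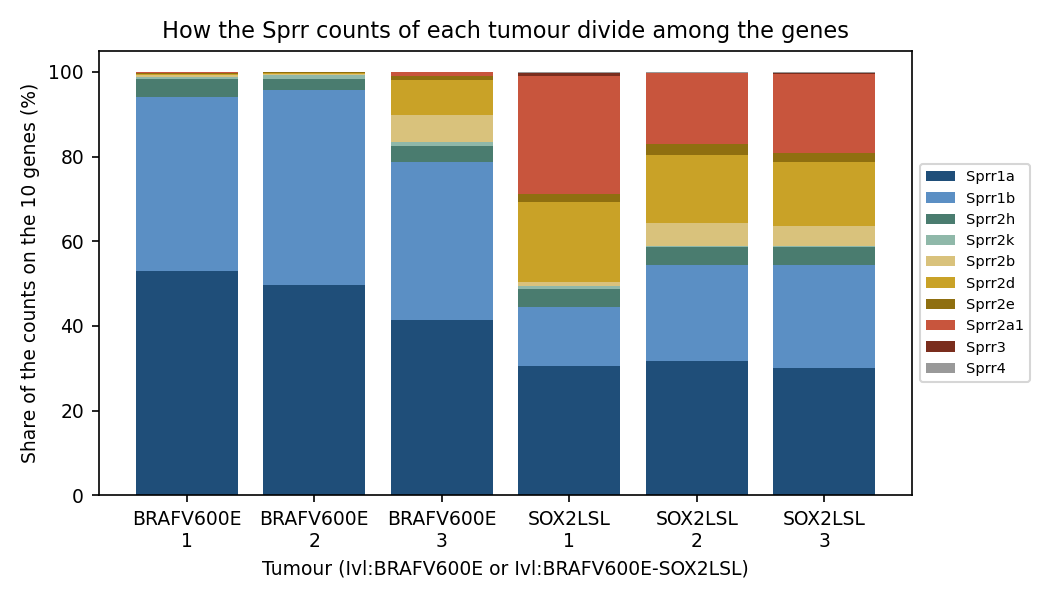
Share of the counts on the 10 Sprr genes (%) that fell on each gene, stacked to 100% for each of the 6 tumours. Sprr1a and Sprr1b (blue) made up 78.7% to 95.8% in Ivl:BRAFV600E tumours and 44.4% to 54.5% in Ivl:BRAFV600E-SOX2LSL tumours, where Sprr2a1 (red) and Sprr2d (dark yellow) took much of the rest.

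Sex was split unevenly between the groups, so differences were also taken within sex, on log2(CPM + 0.5) and without a test. In females (2 Ivl:BRAFV600E tumours and 1 Ivl:BRAFV600E-SOX2LSL tumour) Sprr1a differed by -2.03, Sprr1b by -2.11, Sprr2h by -0.82 and Sprr2k by -3.20. In males (1 and 2 tumours) these differences were -1.60, -2.26, -1.05 and -2.31. The signs of the 4 falling members were thus the same in both sexes. Sprr2a1 differed by 5.65 and 3.53, and Sprr3 by 2.31 and 2.62, in females and males. Sprr2d differed by 4.09 in females and -0.11 in males, and Sprr2e by 3.24 and -0.18, where the males include Ivl:BRAFV600E tumour 3.

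The called members kept their sign when any tumour was left out, but most calls did not survive it. The log2 fold change of Sprr1a ran from -2.13 to -1.72 over the 6 fits with a tumour left out, that of Sprr2a1 from 4.19 to 5.69 and that of Sprr3 from 2.76 to 3.89. Sprr2a1 was called in 3 of these 6 fits, Sprr1a in 2, and Sprr1b, Sprr2h, Sprr2k and Sprr3 in 1 each. No member was called without Ivl:BRAFV600E tumour 1, without Ivl:BRAFV600E tumour 2 or without Ivl:BRAFV600E-SOX2LSL tumour 2, whereas all 6 calls stood without Ivl:BRAFV600E-SOX2LSL tumour 1. With sex as a covariate Sprr2a1 alone remained called, although the log2 fold changes of Sprr1a (-1.81), Sprr1b (-2.13), Sprr2h (-0.93), Sprr2k (-2.94) and Sprr3 (3.20) stayed close to those without it (edgeR adjusted p = 0.0592 to 0.105). Over all these settings the highest adjusted p (edgeR, DESeq2 or limma voom) of the 6 called members was between 0.0875 (Sprr2k) and 0.160 (Sprr2h).

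**Figure D4:**
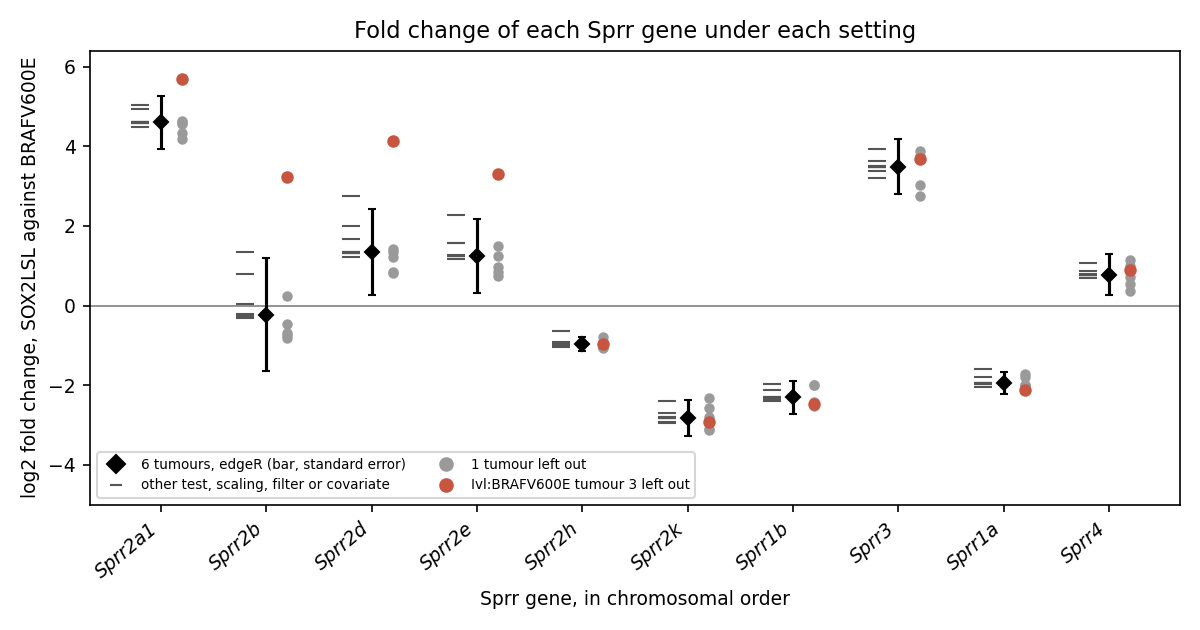
Fold change (log2) of each Sprr gene with all 6 tumours (black diamond with standard error), under other tests, scalings, filters and the sex covariate (dashes) and with 1 tumour left out (circles; red, without Ivl:BRAFV600E tumour 3). Sprr1a, Sprr1b, Sprr2h and Sprr2k stayed below 0 and Sprr2a1 and Sprr3 above it, while Sprr2b, Sprr2d and Sprr2e moved to 3.22, 4.13 and 3.30 without Ivl:BRAFV600E tumour 3.

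The Sprr genes were then set beside the genes that act with them. Over all genes, edgeR called 3.90%, DESeq2 18.2% of those to which it gave an adjusted p, and limma voom 2.98%, and 25.7% had an unadjusted edgeR p below 0.05, so that each count has its own background. The 4 transglutaminases, which join SPRR proteins into the envelope, were not called by edgeR in either direction (median log2 fold change -0.76), although 1 lower and 1 higher gene had an unadjusted p below 0.05, and DESeq2 called 1 in each direction. Tgm3 had a log2 fold change of -1.57 (edgeR adjusted p = 0.181), Tgm1 one of -0.43 (edgeR adjusted p = 0.506), and Tgm2, the widely expressed enzyme, one of 1.90 (edgeR adjusted p = 0.0610). Of 12 scaffold proteins of the envelope edgeR called 1 lower and 0 higher, against 9 and 1 with DESeq2 and 10 and 1 at an unadjusted p below 0.05 (median -0.99). The gene was Sbsn (suprabasin), at -1.97 (edgeR adjusted p = 0.0267). Of 30 late envelope genes, which encode loricrin, filaggrin and late cornified envelope proteins, edgeR called 11 lower and 0 higher, DESeq2 27 and 0, and all 30 had a log2 fold change below 0 (median -2.14), 27 of them at an unadjusted p below 0.05. Lce3e (-2.39, edgeR adjusted p = 0.0206) and Kprp (-2.53, edgeR adjusted p = 0.0311) were among them. Sprr members were thus called in both directions and late envelope genes in 1, a difference that was not tested. With sex as a covariate, the calls over all the other lists together went from 22 lower and 23 higher to 2 and 14.

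Factors known to act on Sprr promoters or on late differentiation were read from 2 lists. Of 17 differentiation factors 2 were lower, Hopx (-1.25, edgeR adjusted p = 0.0288) and Maf (-1.10, edgeR adjusted p = 0.0317), and 0 were higher (11.8% called, against 3.90% of all genes), while DESeq2 called 4 and 2, and 7 and 2 had an unadjusted p below 0.05. Of 12 AP-1 and stress factors 1 was lower, Nfe2l2, which encodes the oxidative stress factor NRF2 (-0.85, edgeR adjusted p = 0.0445), while the AP-1 genes Batf and Jun had log2 fold changes of 2.27 and -0.99 (edgeR adjusted p = 0.0619 and 0.0620) and Stat3 one of 0.54 (edgeR adjusted p = 0.0973). Batf was near the floor in the Ivl:BRAFV600E tumours, at 0.171, 0.231 and 0.143 CPM. In the list of AP-1 and stress factors DESeq2 called 3 lower and 2 higher, and 5 and 2 had an unadjusted p below 0.05. Of 19 stress keratins and alarmins 3 were lower, Slpi (-1.90, edgeR adjusted p = 0.0138), Defb4 (-3.44, edgeR adjusted p = 0.0238) and Defb14 (-1.57, edgeR adjusted p = 0.0281), and 0 were higher, against 6 and 2 with DESeq2. The keratinocyte list had 1 of 12 genes higher (Epcam, 3.67, edgeR adjusted p = 0.0309), against 3 lower and 2 higher with DESeq2. Suprabasal markers (median -2.29) had 2 of 9 lower (Calml3, -2.29, and Dsg1a, -2.39, edgeR adjusted p = 0.0472 and 0.0491), against 7 lower and 1 higher with DESeq2 and 8 and 1 at an unadjusted p below 0.05. Hair follicle genes had 0 calls by edgeR and DESeq2 and 0 at an unadjusted p below 0.05. Fibroblast genes had 0 by edgeR and 3 higher with DESeq2 and at an unadjusted p below 0.05. Of 19 skeletal muscle genes 17 were higher by edgeR, 18 with DESeq2 and 4 with limma voom. Of 13 leukocyte genes edgeR called 2 higher, DESeq2 6, and 8 were higher at an unadjusted p below 0.05.

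**Figure D5:**
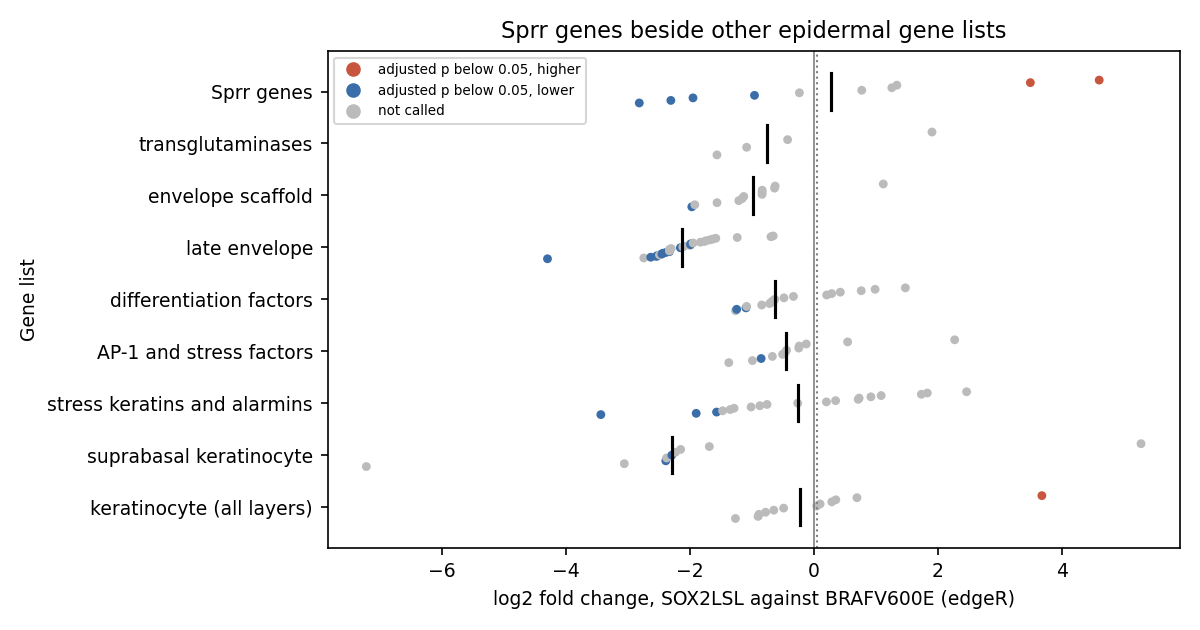
Fold change (log2, edgeR) of each tested gene of the Sprr family and of 8 epidermal gene lists, with the list median as a black bar, the median of all genes (0.04) as a dotted line and called genes in colour. Sprr genes were called on both sides of 0, while the late envelope genes all lay below it (median -2.14).

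The genes most like the falling members (Sprr1a, Sprr1b, Sprr2h and Sprr2k) over the 6 tumours were found by the root mean square difference of centred log2 CPM. Nearest was Slpi, a secreted protease inhibitor of epithelia, at 0.150, followed by Lrrc20 at 0.162, Ces2f at 0.165 and Gm33195 at 0.177. Of the 4 members, Sprr1a differed from their own mean by 0.122, and Sprr1b (0.367), Sprr2h (0.579) and Sprr2k (0.612) were farther from it than these genes, so that the mean lies near Sprr1a and describes the other 3 less well. For the mean of Sprr2a1 and Sprr3 the nearest were Prss12 at 0.224, Wnt9a at 0.296, Mcoln2 at 0.352 and Ly75 at 0.386. Mcoln2 had a mean of 0.126 CPM in the Ivl:BRAFV600E tumours, near the floor, so its distance is uncertain. Sprr2a1 and Sprr3 themselves lay at 0.666 each, equal by construction because the profile is the mean of 2 genes. The listed genes were picked for nearness to that mean, so their smaller distances show no likeness to either member. The likeness rests on the split between the genotypes as much as on the tumours within them.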

How the data were processed

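Ribosomal RNA-depleted libraries were read as 150 bp pairs to about 30 M reads. Per the labels and the methods of the study, the authors checked reads with FastQC 0.11.8, trimmed them with Trim Galore, aligned them to GRCm38 with HISAT2 2.1.0 and counted them per gene with featureCounts (Subread 1.6.3). The deposited values are raw counts, and the handling of multimapping reads and strand is not given in the sources used here. The 7 columns name mice, and 6 were assigned to a genotype by the study's source data. The other 1 is named like the Ivl:BRAFV600E-SOX2LSL columns, whereas the labels list 4 Ivl:BRAFV600E and 3 Ivl:BRAFV600E-SOX2LSL samples, so its group is uncertain and it was not used.

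The 24433 genes that reached 5 reads in any tumour (minimum number of tumours, 1) were tested with edgeR 4.0.16 in R 4.3.3 (TMM, quasi-likelihood test, Benjamini-Hochberg adjustment, threshold 0.05). FPKM was computed here from TMM-scaled CPM and the GENCODE M21 exon length. Coordinates are from that annotation. Promoters of all 10 members and 4 of the other 7 Sprr genes were found in RefSeq (GRCm38.p6). Alternatives were DESeq2 1.42.0, limma 3.58.1 (voom), other scalings and filters, sex as a covariate, removal of muscle genes, a sum over all Sprr2 genes and leaving out each tumour. Sums over smaller sets of copies (such as Sprr2a1, Sprr2a2 and Sprr2a3), removal of the 10 features with the most counts and the split of the likeness measure by direction were added after seeing the data, since the average of members that move in opposite directions describes none of them. The scripts were tested on simulated counts.

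The named genes are the members, the other Sprr genes, every tested gene of the cluster, up to 4 genes with the smallest p of each list, the 8 nearest by likeness, and Sox2, and the flanking genes of the closing section fall outside this rule and were picked with their values in view. The members and lists were chosen with earlier results of these data known. p-values measure the spread between mice of these groups.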

Additional observations from a re-analysis of the deposited data

Results flagged for a closer look

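Sprr2b differed between the sexes in the sign of the change. In males the Ivl:BRAFV600E-SOX2LSL tumours were both below the Ivl:BRAFV600E tumour (log2 difference -2.62), and in females the Ivl:BRAFV600E-SOX2LSL tumour was above both Ivl:BRAFV600E tumours (3.82). The male Ivl:BRAFV600E arm and the female Ivl:BRAFV600E-SOX2LSL arm hold 1 tumour each, so that the spread in a test of the interaction of sex and genotype comes from the other 2 arms alone and the lone tumours are assumed to vary like them. In that test edgeR called 0 genes after Benjamini-Hochberg adjustment, and 473 of 24433 (1.94%) had an unadjusted p below 0.05. The unadjusted edgeR p was 0.0319 for Sprr2b, 0.00017 for Sprr2d, 0.0084 for Sprr2a1 and 0.0112 for Sprr2e, and above 0.05 for the other 6 members. With no call in so small a design, the test shows neither a difference between the sexes nor its absence. Sex cannot be told apart from Ivl:BRAFV600E tumour 3, the only male of its group.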

How the results depend on the processing

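The numbers of called members, 4 lower and 2 higher, were 0 and 1 with sex as a covariate and 4 and 1 under limma voom. With a tumour left out they ranged from 0 to 4 lower and from 0 to 2 higher. Of the genes in the other lists, 22 were lower and 23 higher. These became 64 and 43 with DESeq2, 2 and 14 with sex as a covariate, and 44 lower without a filter on low counts, while the higher count was 9 with voom, 36 with library totals and 6 without the muscle list. With a tumour left out, 0 to 51 were lower and 0 to 29 higher. Over all genes, 954 were called, against 3653 with DESeq2, 1974 with library totals (which moved the median of all genes to 0.39), 1759 without a filter, 228 with sex as a covariate and 22 to 1575 with a tumour left out. Sprr2h was not called with library totals.

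Sprr2b turned positive with voom (1.34), library totals (0.0398), sex as a covariate (0.78), without Ivl:BRAFV600E tumour 3 (3.22) and without Ivl:BRAFV600E-SOX2LSL tumour 1 (0.25), with a range of -0.81 to 3.22 when a tumour was left out. Sprr2i turned negative without Ivl:BRAFV600E tumour 1 (-0.15) and Ivl:BRAFV600E-SOX2LSL tumour 2 (-0.18), with a range of -0.18 to 1.15. Sprr2b, Sprr2h and Sprr2k turn positive when the Sprr2 genes are summed (1.47), by construction, since the sum is led by other genes. The causes of the other changes were not tested. Of 160 refits of the 10 members, 120 kept the direction and the call, 34 lost the call, 1 gained it (Sprr2d) and 5 reversed (Sprr2b).

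No paired analysis was possible because the columns carry no replicate numbers. Each group holds 3 tumours, which limits every call. Sprr3 had the fewest counts, 6 to 21 in Ivl:BRAFV600E tumours.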

Other observations

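Genes flanking the Sprr cluster in the epidermal differentiation complex were read for comparison, and those named here were chosen after their values were seen. On the proximal side, Lor, which encodes the envelope protein loricrin, had a log2 fold change of -2.49 (edgeR adjusted p = 0.0648), and Lelp1, a gene of the same complex, one of -3.80 (edgeR adjusted p = 0.0503). Lelp1 had means of 0.352 CPM in the Ivl:BRAFV600E tumours and 0.0201 CPM in the Ivl:BRAFV600E-SOX2LSL tumours. The latter is below the floor, so the size of its change is uncertain. The non-coding Gm43735 was lower (-3.63, edgeR adjusted p = 0.0225). On the distal side, Ivl, which encodes involucrin and whose promoter drives the Cre, had a log2 fold change of -0.64 (edgeR adjusted p = 0.611). Further on, the late envelope genes Lce1h and Lce1i were lower, at -2.45 and -2.54 (edgeR adjusted p = 0.0460 and 0.0388).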
